A study of Mus musculus with 4 samples.

Results

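The transcripts followed here are those of 44 genes of G2 and mitosis, a list of named genes whose rule uses no measured value, and all 44 were found among the 16600 genes of the table. They were measured by single-cell (sc) RNA-Seq in CD24+ CD45- cells, which were sorted from the cortex of fetal C57BL/6J mice at E18.5, 2 of them wild type (Setd5+/+) and 2 heterozygous for loss of Setd5 (Setd5+/-). The sort was for a surface protein found on most neurons and against one of blood cells. Each fetus gave 1 droplet library (10x Genomics, 3′ v2 chemistry), and the libraries are called WT3, WT6, Het5 and Het9 after the prefixes of the cell names. The Setd5+/- fetuses were heterozygous knockouts that carried the Setd5 GFP allele, and the loss was not limited to a cell type. The libraries held 1445 to 1954 cells, 6562 in all, with medians of 5398 to 5997 unique molecular identifiers (UMIs) per cell. Each held fewer cells than the study states per fetus, and shares of cells below are shares of the cells in the table. A UMI marks 1 captured transcript near its 3′ end, and a level is the mean over cells of UMIs per 10000 UMIs of the cell. Setd5 itself, on chromosome 6 from 113077365 to 113153435 (GRCm38), averaged 1.18 (WT3) and 1.07 (WT6), against 0.54 (Het5) and 0.586 (Het9), so that it went with the labels. Xist, the X-inactivation transcript, averaged 20.6 and 21.5 in the Setd5+/+ libraries against 0.152 and 0.31 in the Setd5+/- libraries, and the Y-linked Kdm5d was at 0 in both Setd5+/+ libraries and at 0.222 and 0.225 in the Setd5+/- libraries. Genotype and sex therefore coincided, and every difference between genotypes below cannot be told apart from one between sexes. Stripped of their library suffix, 224 cells, 56 in each library, shared a barcode across all 4 libraries. None of them entered a gate described below.

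The cell cycle runs from G1 through DNA synthesis in S phase and a second gap, G2, into mitosis, when the copied chromosomes are condensed, attached to the spindle and pulled apart before the cell divides. Many of the genes that run these steps share a program of transcription: they are low in resting cells and in G1 and rise late in S phase and in G2, and many of their proteins are degraded as mitosis ends. In the fetal forebrain the dividing cells are the progenitors. Those of the pallium, marked by Eomes, Neurog2 or Emx2, give rise to excitatory neurons, and those that express Dlx1 and Dlx2, transcription factors of the subpallium, give rise to inhibitory neurons. Neurons have left the cycle. The CDK1 engine (Cdk1, its cyclins Ccnb1 and Ccnb2 and the small CDK subunits Cks1b and Cks2) drives entry into mitosis, with the kinases Plk1 and Aurka. The anaphase-promoting complex, with its activator Cdc20 and its ubiquitin-conjugating enzyme Ube2c, ends it. Further groups are the spindle checkpoint (Bub1, Bub1b and Ttk), the chromosomal passenger complex (Aurkb, Birc5 and Cdca8), the kinetochore and centromere (Ndc80, Nuf2, Spc25, Cenpa, Cenpe and Cenpf), factors of chromosome structure and the nuclear envelope (Top2a, Smc4, Hmgb2, Mki67, Tmpo and Cdca2), the spindle (Tpx2, Nusap1, Kif11, Tacc3, Hmmr, Dlgap5, Ckap2, Ckap2l and Gtse1) and cytokinesis (Anln, Ect2, Racgap1, Kif23, Kif20b and Prc1). Cdca3 and Pbk are other mitotic regulators.

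Promoters of genes of this program often hold a cell cycle genes homology region (CHR), usually with the letters TTTGAA, downstream of CCAAT boxes, which are bound by the factor NF-Y. RefSeq promoter windows on GRCm38.p6, from 250 bases before to 50 bases after a start, were matched for 38 of the 44 genes as 42 promoters. Aurkb, Cdca2, Dlgap5, Pbk, Smc4 and Tpx2 were not matched. Both strands were searched for this form, for the variant TTCGAA, which reads alike on both strands and was counted once, and for CCAAT. Matches to the motifs may overlap one another. This first form of the CHR was present in 73.8% of the member promoters (31 of 42), against 17.9% of all 32851 promoters of the same length. Either form of the CHR was centered within 50 bases of the start in 71.4% of member promoters and 5.42% of all promoters. At least 2 CCAAT boxes stood in 57.1% of them, against 11.7% of all, and at least 2 together with a CHR in 47.6%, against 2.31%. A match of letters is a description and does not show a site in use. The windows below are shown because they span the range found: a mitotic cyclin with 3 evenly spaced CCAAT boxes before a CHR at the start, its kinase partner, the enzyme with the highest level among those of the exit from mitosis, the gene with the largest difference between the progenitor gates described below, and a spindle gene with a difference nearly as large and no match to either motif. Capitals mark matches to the CHR and to the CCAAT box, read on either strand.
Ccnb2 promoter, chr9:70421505-70421804, minus strand: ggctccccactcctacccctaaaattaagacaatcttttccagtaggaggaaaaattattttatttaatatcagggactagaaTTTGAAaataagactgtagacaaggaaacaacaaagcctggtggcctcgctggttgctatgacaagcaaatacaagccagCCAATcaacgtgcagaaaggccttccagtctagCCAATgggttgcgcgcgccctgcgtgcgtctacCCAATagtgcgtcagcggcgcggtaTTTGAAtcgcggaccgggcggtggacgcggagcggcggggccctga
Cdk1 promoter, chr10:69352863-69353162, minus strand: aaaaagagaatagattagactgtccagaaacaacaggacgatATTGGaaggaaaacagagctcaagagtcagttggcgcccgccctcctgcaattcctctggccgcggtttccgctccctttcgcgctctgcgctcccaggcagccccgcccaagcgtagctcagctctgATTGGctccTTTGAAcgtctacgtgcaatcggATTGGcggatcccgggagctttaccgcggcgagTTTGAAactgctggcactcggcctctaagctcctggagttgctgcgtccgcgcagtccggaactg
Ube2c promoter, chr2:164769679-164769978, plus strand: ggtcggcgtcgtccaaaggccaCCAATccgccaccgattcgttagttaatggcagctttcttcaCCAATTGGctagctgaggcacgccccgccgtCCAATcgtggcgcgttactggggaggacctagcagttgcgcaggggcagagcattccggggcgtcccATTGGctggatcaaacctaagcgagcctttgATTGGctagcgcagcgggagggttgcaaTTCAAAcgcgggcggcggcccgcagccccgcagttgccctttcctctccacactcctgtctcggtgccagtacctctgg
Top2a promoter, chr11:99024140-99024439, minus strand: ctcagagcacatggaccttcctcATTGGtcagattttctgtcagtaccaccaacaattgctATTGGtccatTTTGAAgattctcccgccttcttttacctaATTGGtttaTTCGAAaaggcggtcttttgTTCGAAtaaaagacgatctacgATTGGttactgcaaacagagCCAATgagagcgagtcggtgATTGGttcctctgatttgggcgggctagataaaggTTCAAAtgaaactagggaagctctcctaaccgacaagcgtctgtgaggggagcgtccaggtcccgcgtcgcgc
Nusap1 promoter, chr2:119618048-119618347, plus strand: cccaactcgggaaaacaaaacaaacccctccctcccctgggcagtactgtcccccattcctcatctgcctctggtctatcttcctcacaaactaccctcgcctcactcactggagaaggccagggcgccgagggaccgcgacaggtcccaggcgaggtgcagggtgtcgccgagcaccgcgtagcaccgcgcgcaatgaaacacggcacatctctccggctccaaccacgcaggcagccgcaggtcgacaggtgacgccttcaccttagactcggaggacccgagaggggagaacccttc
In the Ccnb2 window the CCAAT boxes began at -87, -54 and -21 and a CHR at 4, counted from the start, with a further CHR at -167. The Ube2c window held 6 CCAAT matches, of which those at -186 and -183 overlap on opposite strands, and 1 CHR at -29. Top2a had 4 CHR and 6 CCAAT matches. Nusap1, Nuf2, Tacc3 and Birc5 had none of either, and their absence says only that these letters are not in this window.

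Over all 6562 cells the levels ranged from 9.3 for Hmgb2, a chromatin protein that is also made outside mitosis, down to 0.0397 for Gtse1, a G2 and S-phase protein that binds microtubules. After Hmgb2 came Tmpo, a protein of the nuclear lamina, at 2.71, Ube2c at 2.13, Top2a, the topoisomerase that untangles chromosomes, at 1.89 and Cks2 at 1.78. A UMI is counted once per captured 3′ end, so that these levels carry no term for transcript length. Tmpo was detected in 63.2% of cells and Hmgb2 in 61.3%. The share was 19.5% for Top2a, 14.1% for Ccnb1 and 2.62% for Gtse1. Most of the 44 genes were thus seen in a minority of cells.

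Whether the genes mark the same cells was examined in 4 gates that used no gene of the cell cycle. Pallial progenitors had at least 2 of 8 progenitor genes, such as Sox2, Vim, Nes and Pax6, and at least 1 of Eomes, Neurog2 and Emx2 with neither Dlx1 nor Dlx2. Dlx-positive progenitors had at least 2 progenitor genes, Dlx1 or Dlx2 and no pallial gene. Excitatory neurons and Dlx-positive neurons had at most 1 progenitor gene. The gates held 1278 pallial progenitors, 1320 Dlx-positive progenitors, 1718 excitatory neurons and 316 Dlx-positive neurons, and 1930 cells fell in none. Among the 1930 were 388 cells with at least 2 progenitor genes but no pallial or Dlx gene, and 325 with both. Progenitors without a detected gene of either lineage are thus left out of both progenitor gates. The pallial gate is not free of young neurons, since Neurod6 and Neurod2, genes of new excitatory neurons, were detected in 60.2% and 59.8% of its cells, against 12.1% and 9.32% of the Dlx-positive progenitors. Nor is the Dlx-positive gate, in which Gad2 and Gad1, genes of inhibitory neurons, were detected in 48.4% and 22.4% of cells, against 4.3% and 0.626% of the pallial progenitors. Sox2, a core gene of neural progenitors, was found in 51.3% of the pallial and 85.5% of the Dlx-positive progenitors. It was also found in 47.8% of Dlx-positive neurons but in 2.85% of excitatory neurons. Sox2 thus sets progenitors apart from neurons less well in the Dlx lineage. Markers of immune cells, melanocytes, endothelial and mural cells and oligodendrocyte precursors summed to at most 0.677 in any library of either gate. Of those 21 genes Pmel and Flt1 were at 0 in the pallial gate, and Csf1r, Ptprc, Mlana, Tyrp1 and Flt1 in the Dlx-positive gate. The 5 erythroid genes, all of them detected, summed to 4.89 to 32.9 in pallial progenitors and to 4.89 to 77.9 in Dlx-positive progenitors, where Het9 alone was above 7.77.

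Cells in which at least 5 of the 44 genes were detected, called member-positive, numbered 2020, or 30.8% of all cells. Dlx-positive progenitors made up 41.5% of them and pallial progenitors 22.6%, while 28.5% lay in no gate. Among Dlx-positive progenitors the share of member-positive cells was 65.7% in WT3 (95% exact binomial interval 60.1 to 71), 57.2% in WT6 (52.4 to 61.9), 68.6% in Het5 (63.3 to 73.6) and 65.3% in Het9 (59.1 to 71.2). Pallial progenitors were member-positive in 29.2% (23.4 to 35.6), 34.3% (29.7 to 39.3), 44.5% (39.4 to 49.6) and 31.2% (25.7 to 37) of cells in the same order. These intervals cover counting error only. In excitatory neurons, which do not divide and serve as the background, the shares were 4.91%, 7.5%, 9.07% and 3.89%. Dlx-positive neurons, in which Sox2 was detected more often, had more, 15.1%, 8.55%, 16.9% and 9.84%, at a lower median depth (3805.5 against 5455.5 UMIs). The 2 progenitor gates did not overlap in any library, and the mean difference was 29.4 percentage points (SD 6.93, n = 4 libraries, higher in 4 of 4). An exact two-sided sign-flip permutation test gave p = 0.13, the smallest it can give with 4 libraries. The size depended on the limit: with at least 3 genes the means were 80.8% and 70.1%, a difference of 10.7 points, and with at least 10 genes 51.4% and 18.7%, a difference of 32.7 points. The median depth was 6827 UMIs in pallial and 5790.5 in Dlx-positive progenitors, so that the gate with the lower share was the deeper one. With each cell thinned to 3000 UMIs before gating, which left out 526 cells, the shares averaged 60.6% and 25.9%, a difference of 34.7 points, and 2.08% of excitatory and 28.5% of Dlx-positive neurons, gated anew on the thinned UMIs, were member-positive.

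Member-positive Dlx-positive progenitors also held more of the genes at once, a median of 26 of the 44 against 10 in member-positive pallial progenitors. At 3000 UMIs the medians were 20 and 13. The score of a cell, the mean over the 44 genes of the natural-log values as deposited, averaged 0.668, 0.54, 0.64 and 0.596 in Dlx-positive progenitors of WT3, WT6, Het5 and Het9. Pallial progenitors averaged 0.209, 0.217, 0.276 and 0.181 and excitatory neurons 0.0588, 0.0674, 0.074 and 0.061. Each Dlx-positive mean was thus above every pallial one, with a mean within-library difference of 0.391 (SD 0.0591, n = 4). The score was spread widely within the Dlx-positive gate, where the SD over cells was 0.583 around a mean of 0.606, and the cells of both gates ran from none of the genes to 42 or 43 of them.

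**Figure D1:**
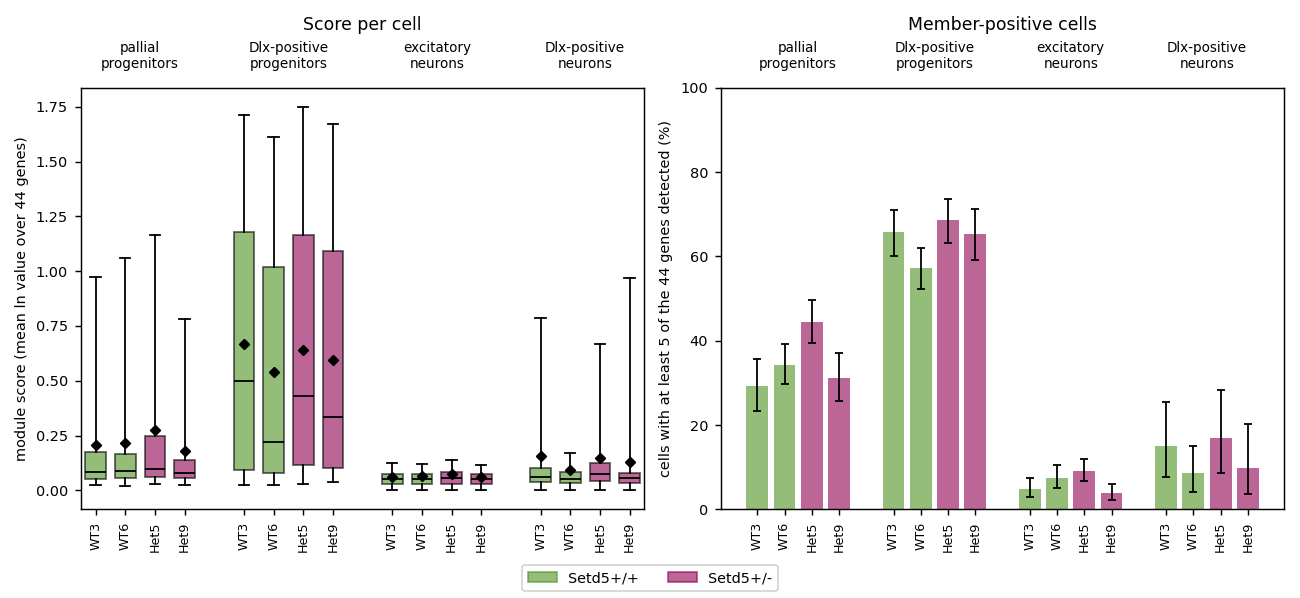
Score per cell (left; mean natural-log value over the 44 genes; boxes show quartiles and median, whiskers the 5th and 95th percentiles, diamonds the mean) and percent of cells with at least 5 of the genes detected (right; bars with 95% exact binomial intervals), by gate and library. Dlx-positive progenitors reached 57.2% to 68.6%, pallial progenitors 29.2% to 44.5%, and the ranges of the genotypes (colors) overlapped in every gate.

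Each gene was then compared between the progenitor gates, with the gates of 1 library as a pair. All 42 genes that reached the minimum level of 0.1 were higher in Dlx-positive progenitors, by limma with Benjamini-Hochberg adjustment over the 7991 genes tested, against 20.3% of all genes called higher. The median difference was 1.68 on the scale of log2(level + 0.1), on which the fold of a low gene is understated, and the median of all genes was -0.04. For each of the 42, the lowest Dlx-positive library lay above the highest pallial one, which was so for 17.8% of all genes tested. With cells thinned to 3000 UMIs, 43 of 43 were called (15.6% of all genes called higher), at a median of 1.63. Gtse1 and Anln, an actin-binding protein of the cleavage furrow, were under the minimum. Without that filter both were called as well.

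Top2a, on chromosome 11 from 98992943 to 99024189, had a level of 0.922, 1.08, 1.59 and 0.611 in pallial progenitors of WT3, WT6, Het5 and Het9. In Dlx-positive progenitors it was at 6.85, 4.71, 6.04 and 5.81. Every Dlx-positive library exceeded every pallial one, and the log2 difference was 2.43 (SE 0.13, adjusted p = 1.6e-11). Nusap1, which bundles spindle microtubules and lies on chromosome 2 from 119618298 to 119651244, stood at 0.234, 0.335, 0.443 and 0.18 in the pallial gate and at 2.07, 1.71, 2.1 and 1.79 in the Dlx-positive gate. Its difference was 2.38 (SE 0.11, adjusted p = 2.22e-12). Ube2c, on the same chromosome from 164769898 to 164778822, went from 1.38, 1.03, 1.86 and 0.788 in pallial to 7.57, 5.42, 7.04 and 6.15 in Dlx-positive progenitors, a difference of 2.34 (SE 0.09, adjusted p = 3.12e-13). In both gates WT3 and Het5 were the higher libraries for Ube2c. Birc5, the survivin subunit of the chromosomal passenger complex, stood at 0.735, 0.66, 0.879 and 0.314 against 3.55, 2.73, 3.36 and 3.29 (log2 difference 2.22, SE 0.13). Its pallial level in Het9 was well under the other 3, while its Dlx-positive level there was not. Spc25, a subunit of the outer kinetochore, stood at 0.314, 0.42, 0.677 and 0.293 against 2.47, 1.72, 2.25 and 1.98 (2.11, SE 0.12).

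Prc1, which bundles microtubules in the midzone of the spindle, had levels of 0.326, 0.355, 0.512 and 0.258 in pallial and 2.14, 1.41, 2.1 and 1.63 in Dlx-positive progenitors of the libraries in that order, a log2 difference of 2.06 (SE 0.10). Hmmr, another spindle protein, had 0.142, 0.176, 0.26 and 0.11 against 1.09, 0.852, 1.03 and 0.872 (1.99, SE 0.11). For both, as for Spc25, WT6 was the lowest Dlx-positive library and still above every pallial one. The kinetochore protein Cenpf was at 0.876, 0.872, 1.2 and 0.797 and then at 4.78, 2.96, 4.31 and 3.66 (1.95, SE 0.08), and Cenpe, a motor of the kinetochore, at 0.345, 0.322, 0.538 and 0.346 and then at 2.22, 1.46, 1.83 and 1.57 (1.94, SE 0.10). Cdk1, on chromosome 10 from 69335146 to 69352938, was at 0.395, 0.421, 0.59 and 0.3 in pallial and at 1.94, 1.76, 1.72 and 1.97 in Dlx-positive progenitors (1.91, SE 0.11). Its Dlx-positive level thus varied little between libraries while its pallial level was highest in Het5. Cdca2, a targeting subunit of a phosphatase on anaphase chromosomes, was at 0.077, 0.103, 0.253 and 0.126 against 0.877, 0.68, 0.801 and 0.734 (1.91, SE 0.13). Ccnb1 was at 0.508, 0.504, 0.748 and 0.325 against 2.29, 1.83, 2.61 and 1.98 (1.90, SE 0.09). The adjusted p of these 7 genes, Spc25 and Birc5 ran from 7.2e-13 for Cenpf to 7.81e-10 for Cdca2 (limma with Benjamini-Hochberg adjustment).

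By role, each of the groups was higher throughout. All 7 genes of the CDK1 engine and entry kinases were called, with differences from 1.25 for Cks1b to 1.91 for Cdk1. The 2 genes of the anaphase-promoting complex had 1.81 (Cdc20) and 2.34, and the 3 of the spindle checkpoint 1.26 to 1.53. The 3 passenger genes ranged from 1.76 to 2.22, the 6 kinetochore genes from 1.34 to 2.11, and the 6 genes of chromosome structure from 1.27 for Tmpo to 2.43. Among the spindle genes 8 of 9 were tested and ranged from 0.96 for Ckap2, a microtubule-associated protein, to 2.38, and among those of cytokinesis 5 of 6 from 1.30 to 2.06. Cdca3 had 1.56 and Pbk, a mitotic kinase, 1.79. Without cells in which Neurod2 or Neurod6 was detected, 42 of 43 genes were called (17.8% of all genes called higher) at a median of 1.19, with Ckap2 not called. Among cells in which Sox2 was detected, 43 of 43 were called (17.7% of all), at a median of 1.27. With cells that had Gad1 or Gad2 left out together with those that had Neurod2 or Neurod6, which kept 41 to 131 pallial and 84 to 166 Dlx-positive cells per library, 40 of 42 were called (12.1% of all), at a median of 1.11, and Ccnb2 and Ckap2 were not.

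**Figure D2:**
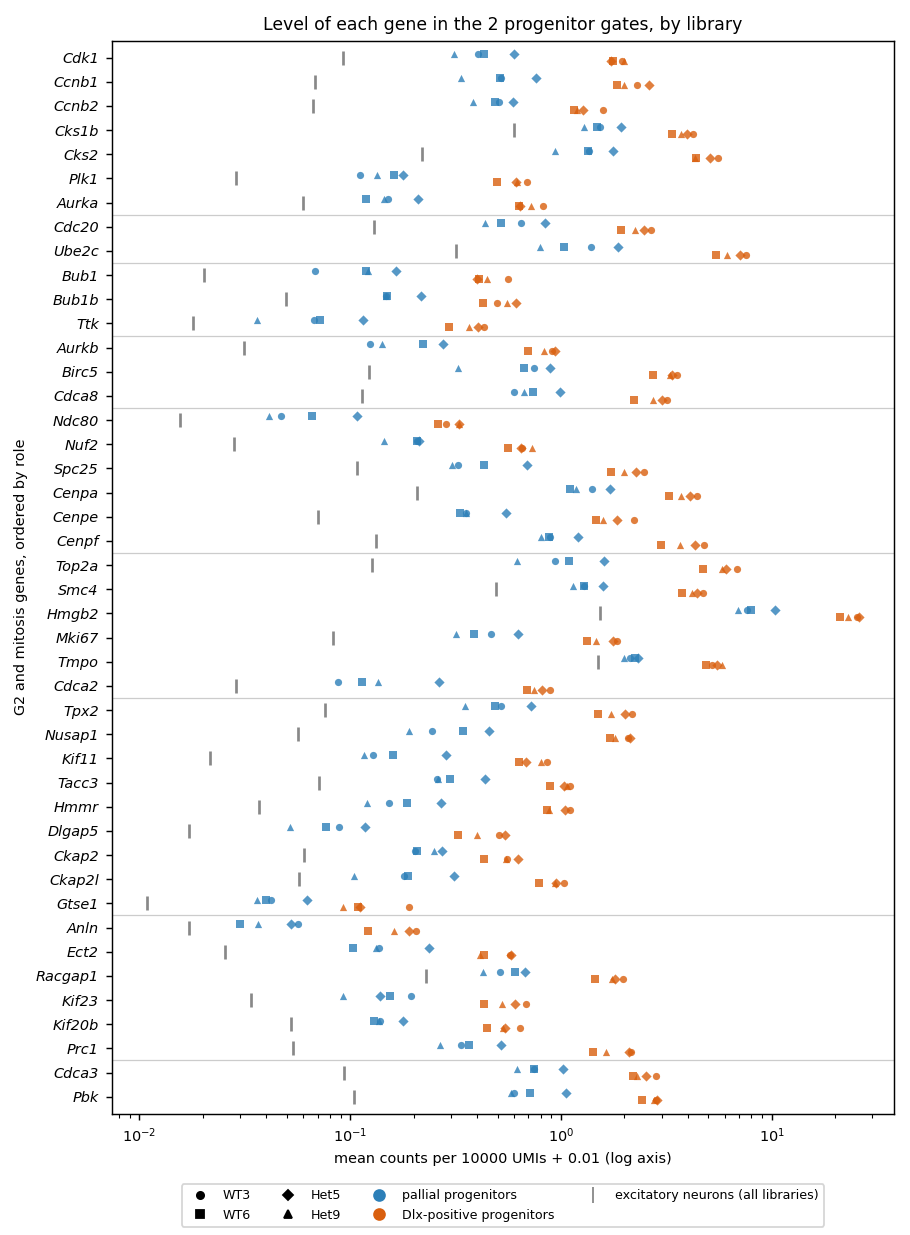
Level of each of the 44 genes (mean UMIs per 10000 plus 0.01, log axis) in pallial (blue) and Dlx-positive (orange) progenitors, with 1 symbol per library and a grey tick for excitatory neurons. For the 42 genes tested all orange points lie to the right of all blue ones, and the grey tick lies to the left of all pallial points for each of the 44.

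Excitatory neurons held little of most of the genes, and the mean level was higher in Dlx-positive neurons for 44 of the 44. The Dlx-positive neuron gate may hold progenitors, since Sox2 was detected in 47.8% of its cells, against 2.85% of excitatory neurons. Top2a and the score below are to be read with this limit. In Dlx-positive neurons the score averaged 0.13, between the 0.0656 of excitatory neurons and the 0.225 of pallial progenitors, and 6.65% of cells had at least 10 of the genes, against 1.22% of excitatory neurons. Top2a, for example, averaged 0.895 in Dlx-positive neurons, 0.117 in excitatory neurons and 1.1 in pallial progenitors. Relative to the mean of the progenitor gates, the level in excitatory neurons was 1.14% for Gtse1, 2.6% for the spindle motor Kif11, 3.42% for Top2a and 9.53% for Hmgb2. Tmpo was the highest, at 39.7%: it was at 1.48, 1.35, 1.56 and 1.51 in excitatory neurons of WT3, WT6, Het5 and Het9 and was detected in 53.9% of them. Cks1b followed at 22% (0.558, 0.665, 0.58 and 0.555) and Racgap1, a GTPase-activating protein of cytokinesis, at 19.4% (0.197, 0.169, 0.249 and 0.257). The other members of these genes' groups were much lower in the same cells, with Cks2 at 6.71% and Kif23, the binding partner of Racgap1, at 7.08%.

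A higher mean can come from more dividing cells or from more transcripts in each, and a mean over a gate cannot tell these apart. The genes were therefore compared among cells with at least 5 of 58 other mitotic genes detected, a list that shares no gene with the 44. This kept 495 pallial (82, 156, 166 and 91 in WT3, WT6, Het5 and Het9) and 863 Dlx-positive progenitors (208, 262, 229 and 164). All 44 genes were still higher in Dlx-positive cells (limma with Benjamini-Hochberg adjustment, 15.3% of 7991 genes called higher), at a median of 1.19, and the gates did not overlap for any of them (13.4% of all genes). Gtse1 had the smallest difference, 0.56 (SE 0.17, adjusted p = 0.0104), and was not called without WT3 or without WT6. Yet 14.4% of excitatory neurons passed this limit too, so that it does not select dividing cells alone. With at least 8 of the other genes, which 1.4% of excitatory neurons reached, 254 pallial and 710 Dlx-positive cells remained, 39 of the 44 were called (11.4% of all genes called higher), and the median was 0.58. With each cell thinned to 3000 UMIs and at least 5 of the other genes, 27 were called (6.16% of all), at a median of 0.57. This fit held 26, 65, 52 and 31 pallial cells of WT3, WT6, Het5 and Het9. With cells that had Neurod2 or Neurod6 left out as well, 26 were called (5.4% of all), at 0.76, over 10, 40, 26 and 16 pallial cells. Without Neurod2 or Neurod6 cells but unthinned, 42 were called (13.6% of all), and among cells with Sox2 also 42 (14.1% of all). With Neurod2, Neurod6, Gad1 and Gad2 cells left out, 36 of 43 were called (9.18% of all), at a median of 0.95. That fit held 21, 74, 63 and 35 pallial cells. A call lost over so few cells does not show that the difference is absent. Over these 7 selections of cells 23 of the 43 genes tested in each were called every time, as were 3.75% of the 7255 genes tested in each: Birc5, Bub1, Ccnb1, Cdc20, Cdca2, Cdca8, Cdk1, Cenpf, Ckap2l, Cks1b, Cks2, Hmgb2, Hmmr, Kif11, Ndc80, Nusap1, Prc1, Smc4, Spc25, Tmpo, Top2a, Ttk and Ube2c. The selections overlap and come from the same libraries. Those by Neurod2, Neurod6, Sox2, Gad1 or Gad2 were chosen after seeing the data.

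The paired cyclins differed in how the difference held. Among cells with other mitotic genes Ccnb1 was at 1.36, 1.23, 1.63 and 0.94 in pallial and 3.38, 3.01, 3.69 and 3.01 in Dlx-positive cells of WT3, WT6, Het5 and Het9, a log2 difference of 1.30 (SE 0.08, adjusted p = 1.54e-11). Ccnb2 was at 1.33, 1.1, 1.28 and 1.02 against 2.29, 1.86, 1.77 and 1.75, a difference of 0.65 (SE 0.08, adjusted p = 1.58e-06). The gates did not overlap for either gene. In thinned cells the difference was 0.60 for Ccnb1 (SE 0.15, adjusted p = 0.00365 by limma with Benjamini-Hochberg adjustment) and 0.05 for Ccnb2 (SE 0.16, adjusted p = 0.9 by the same method), and with 8 other mitotic genes 0.71 and 0.12. Without Neurod2, Neurod6, Gad1 or Gad2 cells Ccnb2 had -0.10 and was not called. That selection held 21 to 74 pallial cells per library, and the thinned one 26 to 65. Cenpa, the histone of the centromere, was nearer to Ccnb2, with 0.83 (SE 0.07) before and 0.14 (SE 0.11) after thinning. Nusap1 kept 1.88 before and 1.30 after (SE 0.10 and 0.16), Top2a 1.75 and 1.13 (SE 0.10 and 0.12), and Ube2c 1.74 and 1.12 (SE 0.09 and 0.10). Whether 1 gene's difference exceeds another's was not tested.

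**Figure D3:**
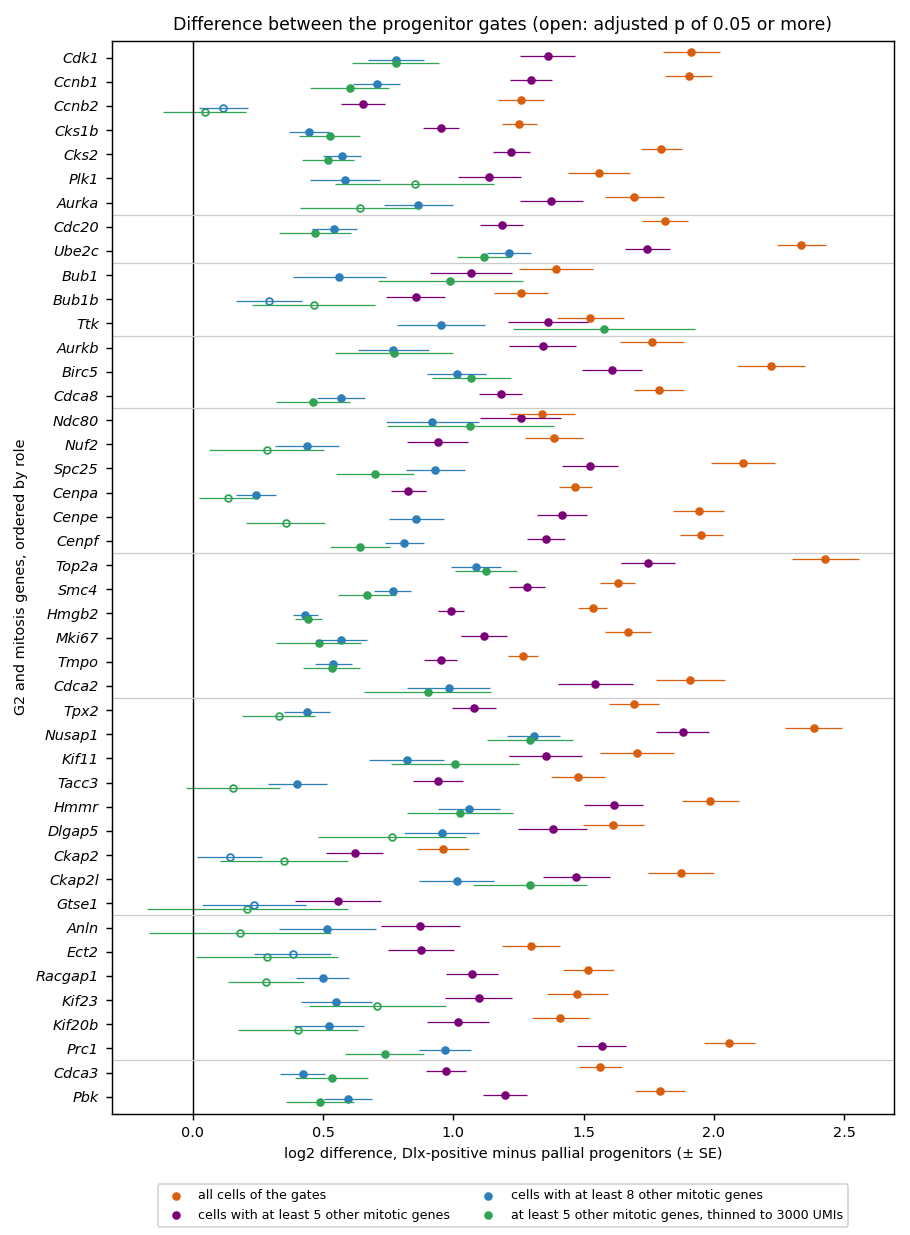
Difference of each gene between Dlx-positive and pallial progenitors (log2 of level + 0.1, with SE) over all cells of the gates and over cells selected by other mitotic genes in 3 ways. The medians are 1.68 over all cells and 1.19, 0.58 and 0.57 over the selected cells, and open symbols, such as those of Ccnb2, are genes with an adjusted p of 0.05 or more.

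The genes differed in how they went with genes of S phase. Across the 1358 progenitors with other mitotic genes, each gene was correlated with a score of 47 genes of S phase and G1/S, as a description over cells of 4 libraries that differ in depth. The lowest values were those of Cenpa (Pearson r = -0.39), Ccnb2 (-0.30), Cdc20 (-0.29) and Ube2c (-0.27), and the highest those of Tmpo (0.36), Top2a (0.34), Hmgb2 (0.26), Pbk (0.25) and Smc4, a subunit of condensin (0.23). These values pool 2 gates that differ in both lists, and within the gates their signs differed. Among the 495 pallial cells r was below 0 for 3 of the 44 genes, with a median of 0.20, and among the 863 Dlx-positive cells for 41 of 44, with a median of -0.22. Cenpa had the lowest r in both (-0.16 and -0.63), Ube2c had 0.056 and -0.57, and Top2a (0.59 and 0.099) and Tmpo (0.53 and 0.12) were the highest pair in both. The score of the 44 genes had r = -0.0078 with the S-phase score in these cells and 0.471 over all 6562. Over the 946 pairs of the 44 genes r ranged from 0.113 (Dlgap5 and Anln) to 0.798 (Ube2c and Cenpf), with a median of 0.461. With the score of the other 43 genes, Birc5 (0.889), Cks2 (0.881) and Cenpf (0.877) had the highest r, and Anln (0.396) and Gtse1 (0.408), the lowest in level, had the lowest r. Among the 10 genes outside the list that were most like the score over all 6562 cells, out of 11362 with a UMI in at least 1% of them, were Ccna2 (r = 0.82), Fam64a (0.76), Smc2 (0.75), Kif22 (0.75), 2810417H13Rik (0.72), Knstrn (0.71), Lockd (0.71), H2afx (0.71) and Casc5 (0.70). Of the 10, 6 are on the list of other mitotic genes and none on that of S phase.

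**Figure D4:**
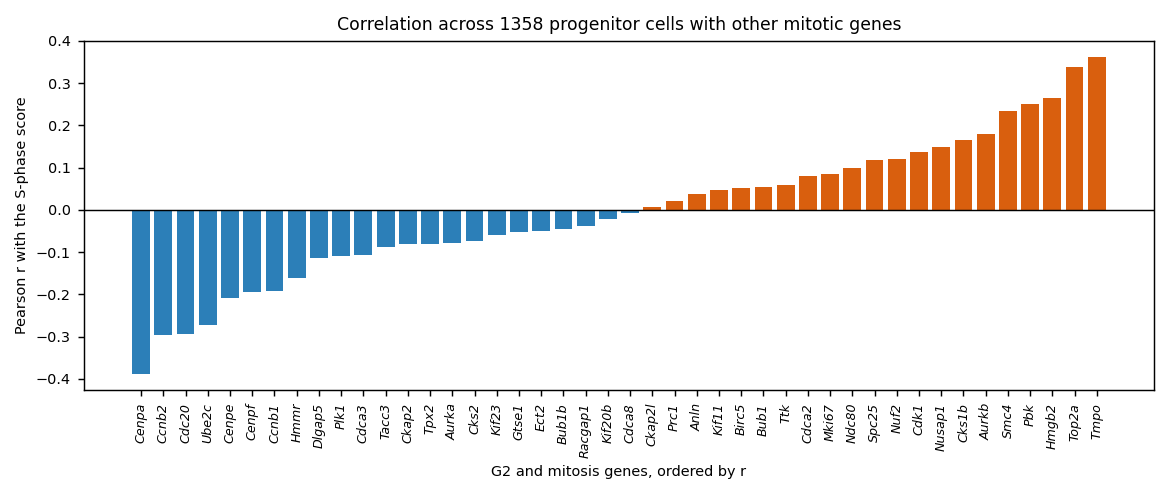
Pearson r of each of the 44 genes with a score of 47 S-phase and G1/S genes across 1358 progenitors with at least 5 other mitotic genes detected. The genes run from Cenpa at -0.39 to Tmpo at 0.36 with both gates pooled, and r within each gate differs from these values.

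Genotypes were compared to see whether the loss of 1 copy of Setd5 goes with a change of the mitotic program. Over all cells 0 of the 41 genes tested were called by limma with Benjamini-Hochberg adjustment (0.086% of all genes called), and 0 had an unadjusted p under 0.05 (4.34% of all genes did). Of the 41, 39 were lower in the mean of the Setd5+/- libraries, at a median log2 difference of -0.11, but the 2 Setd5+/- libraries lay far apart: Het9 was the lowest library for 42 of the 44 genes and Het5 the highest for 23. Hmgb2 was at 9.71 and 9.33 in WT3 and WT6, against 10.4 and 7.51 in Het5 and Het9, a log2 difference of -0.10 (SE 0.13). Top2a was at 2.31 and 1.74 against 2.07 and 1.47 (-0.19, SE 0.17), and Ube2c at 2.43 and 2.03 against 2.44 and 1.6 (-0.16, SE 0.17). Tmpo was at 2.69 and 2.72 against 2.82 and 2.58 (-0.0028, SE 0.06) and Cks2 at 2.01 and 1.79 against 1.95 and 1.32 (-0.23, SE 0.15). All 5 had an adjusted p of 0.994 to 0.999, and for each the ranges of the genotypes overlapped. Bub1, a checkpoint kinase, was the only one of the 41 without overlap, at 0.174 and 0.16 against 0.155 and 0.139 (16.4% of all genes were lower without overlap and 32% did not overlap in either direction). A fit that leaves out a library sets 1 library of a genotype against 2 of the other, so that the spread comes from the other genotype alone (with limma's pooling over genes) and the lone library is assumed to vary like it. Without Het5, with Het9 as the lone Setd5+/- library, the median difference was -0.32 and 29 of 41 genes had an unadjusted p under 0.05 (7.6% of all genes), with 0 called. Without Het9 the median was 0.09. In a mean over all cells, fewer dividing cells and less RNA of these genes in each cannot be told apart.

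Pallial progenitors showed the same spread between the Setd5+/- libraries. Of 39 genes tested 0 were called (0.0875% of all genes called), and the median difference was 0.09. Het5 was the highest library for 42 of the 44 genes and Het9 the lowest for 31. Top2a, for which the pallial values are given above, had both its highest (1.59, Het5) and its lowest value (0.611, Het9) in Setd5+/- libraries. Cdca2, with the pallial levels given above, was the only one of them with an unadjusted p under 0.05 (3.95% of all genes; log2 difference 0.57, SE 0.21, adjusted p = 1 by limma with Benjamini-Hochberg adjustment). It was named after its value was seen, as were Bub1, Cenpe and Ckap2, which with it were higher in both Setd5+/- libraries (14.6% of all genes were), and Kif23, which was lower in both (17.1%). These are 5 of the 39 genes tested, against 31.7% of all genes without overlap. Without Het5 the median was -0.22 and Birc5 alone was called (-0.94, adjusted p = 0.00482), with Het9, where it was at 0.314, against WT3 and WT6, and without Het9 the median was 0.46 with 0 called. The number with an unadjusted p under 0.05 rose from 1 to 26 of 39 without Het9 (3.24% of all genes), 9 of 38 without Het5 (4.69%) and 8 of 39 without WT6 (8.76%), each with 1 genotype as a lone library that adds nothing to the spread. Summed erythroid levels in this gate, 32.9, 5.96, 4.89 and 15.5 in WT3, WT6, Het5 and Het9, were lowest in Het5, where the 44 genes were highest, and their part in the result was not tested.

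In Dlx-positive progenitors all 44 genes were tested and 0 were called (0.0911% of all genes called) or had an unadjusted p under 0.05 (4.14% of all genes did). The median difference was 0.04, but it was 0.25 without WT3, when 6 of 43 genes had an unadjusted p under 0.05 (2.59% of all genes), and -0.16 without WT6, when 3 of 44 did (4.38%), with 1 Setd5+/+ library and the spread of the Setd5+/- pair in both fits. Here the widest spread was within Setd5+/+, with WT3 the highest library for 31 genes and WT6 the lowest for 39. Bub1b, Tmpo and Ndc80 were higher in both Setd5+/- libraries (14.9% of all genes were) and none was lower in both, against 32.8% of all genes without overlap. Tmpo, for example, was at 5.21 and 4.86 in WT3 and WT6, against 5.49 and 5.78 in Het5 and Het9. Het9 carried the highest erythroid level of this gate (77.9, against 4.89 to 7.77 in the others) and was the highest library for 3 and the lowest for 3 of the 44 genes. The difference between the genotype effects of the gates was itself tested for 42 genes. Of these 0 were called (0.0125% of all genes called), and Cdca2 (-0.58, SE 0.24) and Cenpe (-0.39, SE 0.18) had an unadjusted p under 0.05 (4.22% of all genes did). The median over the genes tested was -0.03, and it ran from -0.31 to 0.21 with each library left out. Without Het5, Birc5 was called (1.02, adjusted p = 0.0431 by limma with Benjamini-Hochberg adjustment), with Het9 as the lone Setd5+/- library and the spread from WT3 and WT6.

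The shares of member-positive cells averaged 30.8% in Setd5+/- and 30.2% in Setd5+/+ libraries over all cells, 37.8% and 31.8% in pallial progenitors and 67% and 61.4% in Dlx-positive progenitors. The differences of 0.585, 6.04 and 5.53 points had p = 1, 0.667 and 0.667 in an exact two-sided permutation test, which with 2 against 2 libraries cannot give a p under 0.333. With thinned cells they were -0.996, 0.491 and -0.736 points. With each library left out, that in Dlx-positive progenitors ran from 1.27 to 9.79 points. With at least 3 genes detected, the genotypes did not overlap in Dlx-positive progenitors: the shares were 79.6% and 76.4% in WT3 and WT6, against 86% and 81.3% in Het5 and Het9, a difference of 5.62 points (exact permutation p = 0.333, the smallest possible). In thinned cells they were 76% and 69.9% against 76.2% and 78.4%, a difference of 4.4 points with the same p. At least 10 genes gave 2.95 points (p = 0.667 in the same exact test), and -2.18 in thinned cells. These permutation p-values come from exchanging the labels of 2 fetuses of each genotype. Those of limma between genotypes rest on the spread between these fetuses, or of 1 genotype where a library was left out.

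**Figure D5:**
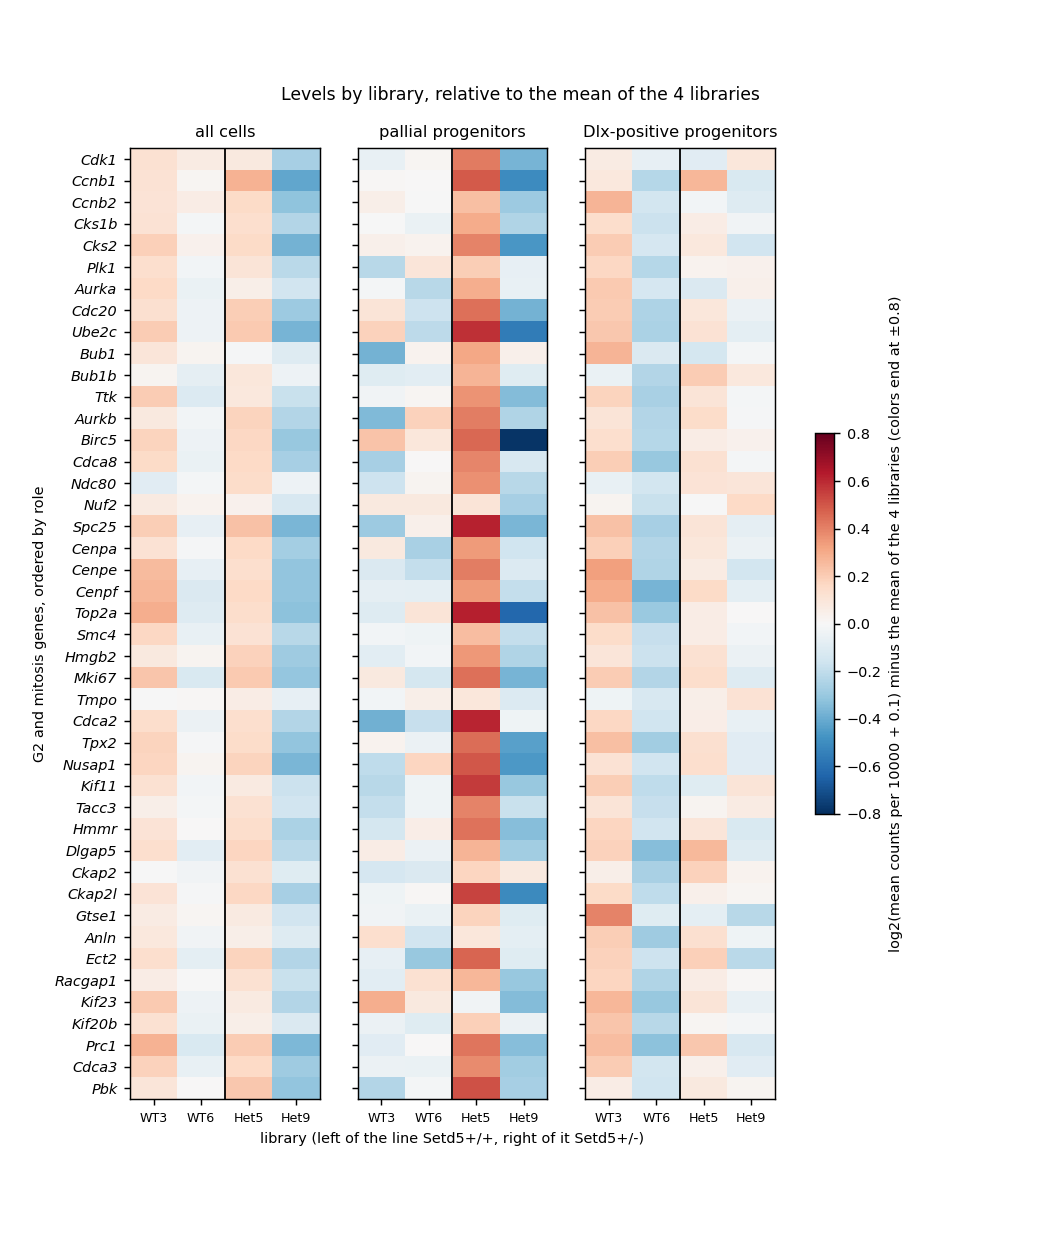
Level of each of the 44 genes in each library (log2 of level + 0.1, minus the mean of the 4 libraries) over all cells, in pallial progenitors and in Dlx-positive progenitors. Het9 is lowest for 42 genes over all cells, Het5 highest for 42 in pallial progenitors and WT6 lowest for 39 in Dlx-positive progenitors.

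Other genes of the cycle gave a like picture between the gates. Of 52 other mitotic genes tested, 51 were higher in Dlx-positive progenitors (20.3% of all genes called higher), at a median of 1.23. The exception was G2e3, a ubiquitin ligase (0.03, SE 0.13). All 46 S-phase and G1/S genes tested were higher, at a median of 0.97. Among cells with other mitotic genes 52 of 57 and 46 of 47 were higher (15.3% of all), although the first of these lists had chosen the cells. Between genotypes 0 genes of either list were called over all cells, in pallial or in Dlx-positive progenitors. In Dlx-positive progenitors, 44 of 47 S-phase and G1/S genes were higher in the mean of the Setd5+/- libraries, at a median of 0.16 against -0.01 for all genes, and 23 were higher in both (14.9% of all genes were), while 13 had an unadjusted p under 0.05 (4.14% of all genes did). The 44 G2 and mitosis genes had 33 of 44, a median of 0.04, 3 and 0 on the same counts. With each library left out the median of the S-phase and G1/S genes ran from 0.10 to 0.24, and the number with an unadjusted p under 0.05 was 2 without WT3 (2.59% of all genes), 5 without Het5 (7.43%), 10 without Het9 (4.51%) and 14 without WT6 (4.38%), again with a lone library in 1 genotype. Of the same list, 15 of 38 genes tested were higher in the Setd5+/- mean in pallial progenitors (median -0.03) and 18 of 40 over all cells (median -0.0057), with 0 under an unadjusted p of 0.05 in either. These medians changed sign as libraries were left out, from -0.14 to 0.09 in pallial progenitors and from -0.13 to 0.12 over all cells. The difference between the gates' genotype effects had a median of 0.23 over 46 of these genes, of which 0 were called and 10 had an unadjusted p under 0.05 (4.22% of all genes did). With each library left out that median ran from 0.13 to 0.30.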

How the data were processed

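CD24+ CD45- cortical cells of 2 Setd5+/+ and 2 Setd5+/- fetuses were profiled, 1 library each. The authors deposited a table on a natural log scale, ln(1 + UMIs per 10000 of that cell). The submitters' processing notes name mm10, Cell Ranger 2.1 and Seurat 2.3.0. For annotation, strand and cell filters, nothing is given in the sources used here. Undoing the log gave whole UMIs for 100% of the values above 0 (tolerance 0.001). Prefixes of the cell names gave the genotype, not the replicate number.

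Levels were averaged over the cells of a library or gate. limma (with a trend) was run on log2(level + 0.1) for genes with a mean of at least 0.1, with Benjamini-Hochberg adjustment over all genes tested and a threshold of 0.05. It used 4 libraries between genotypes and 8 profiles with the library as a block between gates. The interaction compared the 4 within-library differences between gates by genotype. Profiles of summed UMIs served as an alternative; counts were not modelled. Shares were compared with exact permutation tests. The steps were tested on simulated data. Scrublet called 44 cells (0.671%) doublets, which were kept. The 44 genes, the gates and the lists were chosen with earlier results of these data known. Genes given with full values were the 12 of largest difference between the gates among those called, the 5 of highest level and the 3 highest in excitatory relative to progenitor cells. Of the genes outside the list, those among the 10 most like the score were named, except items that are not reported here. Alternatives were other pseudocounts, filters and gates, thinning, doublets or shared barcodes removed, libraries left out and a fit without the library block. Gene coordinates are from GENCODE M21 on GRCm38. Software was R 4.3.3, limma 3.58.1, Python 3.11.15, matplotlib 3.10.9, scanpy 1.11.5, scipy 1.17.1, pandas 2.3.3 and numpy 2.4.6.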

Additional observations from a re-analysis of the deposited data

How the results depend on the processing

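The difference between the progenitor gates was called for every member tested under every alternative run on all cells of the gates, except Ckap2 without cells with Neurod2 or Neurod6 and Ckap2 and Ccnb2 without these and Gad1 or Gad2 cells. These 2 alternatives and the one with Sox2 were chosen after seeing the data. Its median of 1.68 was 1.99 and 0.88 with pseudocounts of 0.01 and 1, 1.19 without cells with Neurod2 or Neurod6, 1.11 without Gad1 or Gad2 cells too (2351 of all genes called, 3779 as reported), 1.27 with Sox2 cells only and 1.58 to 1.79 with each library left out. Among cells with other mitotic genes the median of 1.19 was 0.72 with a pseudocount of 1, 1.56 and 0.58 with at least 3 and at least 8 other mitotic genes, 0.93 with Sox2 cells only, 0.95 without Neurod2, Neurod6, Gad1 or Gad2 cells (1693 of all genes called, and Ccnb2 at -0.10), 0.57 in thinned cells and 0.76 in thinned cells without Neurod2 or Neurod6. In the last 2, 27 and 26 of the 44 members and 1073 and 772 of all genes (3096 in the fit as reported) were called, over fewer cells and UMIs. The last of them was also chosen after seeing the data. The fit without the library block called the same numbers of members.

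Between genotypes, 0 members were called under any alternative except Birc5 without Het5, where Het9 was the lone Setd5+/- library. With each library left out, all genes called went from 7 to 41 over all cells, 8 to 84 in pallial and 7 to 39 in Dlx-positive progenitors (7 each with all libraries), and members called in pallial progenitors and in the interaction from 0 to 1. At least 3 progenitor genes gave 14 in Dlx-positive progenitors. The interaction had 1 called gene, 0 to 22 with each library left out, 8 with a pseudocount of 1, 4 in thinned cells, 2 with at least 3 progenitor genes, 2 without doublets, 3 without Neurod2, Neurod6, Gad1 or Gad2 cells, and 0 with no filter, without Neurod2 or Neurod6 cells, or with Sox2 cells only. With each library left out, the differences over all cells ran from -0.34 to 0.13 for Hmgb2, -0.065 to 0.059 for Tmpo, -0.45 to 0.13 for Ube2c, -0.42 to 0.044 for Top2a and -0.49 to 0.035 for Cks2. The share difference of 0.585 points over all cells was -0.964 with at least 10 members, -0.996 in thinned cells and -5.04 to 6.21 with each library left out, that in pallial progenitors -0.614 to 12.7 with each library left out, and that in Dlx-positive progenitors 1.27 to 9.79 with each library left out and -0.736 in thinned cells. The causes were not tested. No paired analysis was possible between genotypes by replicate number, because the cell names carry no replicate number of the labels. The gates were paired within each library.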

Other observations

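Cdkn1c, the CDK inhibitor p57, which holds cells out of the cycle, is not among the 44 genes but was the only gene called for a difference of the genotype effects between the progenitor gates, and it was named after its value was seen. Its level was 2.96 and 2.59 in Dlx-positive progenitors of WT3 and WT6 and 0.846 and 0.655 in those of Het5 and Het9. In pallial progenitors it was at 1.62, 2.42, 2.09 and 2.43 in the same order. The log2 difference between genotypes was -1.77 in Dlx-positive progenitors (adjusted p = 0.000112 by limma with Benjamini-Hochberg adjustment), and the difference of the effects was -1.94 (adjusted p = 9.32e-05). By the same method, this call was lost with the difference about as large with no filter on low values (-1.94, adjusted p = 0.24), among cells with Sox2 (-2.0, adjusted p = 0.11) and without Het9 (-1.68, adjusted p = 0.0623, with Het5 as the lone Setd5+/- library). It was lost with a smaller difference without cells with Neurod2 or Neurod6 (-0.95, adjusted p = 0.256). With Gad1 and Gad2 cells left out as well, the call was kept (-1.82, adjusted p = 0.000674 by limma with Benjamini-Hochberg adjustment). In all Dlx-positive progenitors 0 of the 44 G2 and mitosis genes were called. Sex and genotype coincided in these libraries.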
